A study of Homo sapiens with 6 samples.

Results

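The mitotic cyclins and the regulators of the anaphase-promoting complex are described here as a set of 10 genes, CCNA2, CCNB1, CCNB2, CCNF, CDC20, FZR1, UBE2C, UBE2S, FBXO5 and PTTG1, chosen by name for their roles, with earlier results of these data known, so that no measured value enters the rule but the choice was not blind to the data. All 10 were found among the 28563 genes of the RNA-seq table, of which 28161 have a GENCODE symbol. The table compares cells labelled HepG2, an established human line from a liver cancer, that were given polydatin (PD), a plant compound, with cells given DMSO, the solvent. Plates were divided at random into 3 per treatment and harvested after 24 h, with 1 library per plate, and the labels give the PD dose as 336 µM, whereas the methods of the paper give a lower one. No allele or transgene separates the groups, and both hold the same line at the same time point, so the only stated difference is PD. The values are FPKM, fragments scaled to gene length and to library size, so levels of different genes can be set side by side per length.

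The cyclins A and B bind CDK1 and so switch on the kinase activity that drives cells into mitosis. The anaphase-promoting complex (APC/C) is a ubiquitin ligase that ends this state by marking cyclins and securin for destruction, first with the coactivator CDC20 and then with the coactivator FZR1, also called CDH1. UBE2C and UBE2S are the ubiquitin-conjugating enzymes that start and extend the chains on its substrates, FBXO5 (EMI1) is an inhibitor that keeps the complex off before mitosis, PTTG1 encodes securin, which holds the protease separase in check, and CCNF encodes cyclin F, which is the substrate receptor of another ubiquitin ligase and binds no CDK. Most of these genes are transcribed late in the cell cycle, with a peak in G2 and mitosis, so that their RNA in a dish depends on how many cells are in those phases as well as on the RNA in each cell. In these bulk libraries, fewer cells in G2 and mitosis and less RNA per cell cannot be told apart.

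As worked back from the steps in the FPKM, a DMSO library held 16763318 to 17274927 fragments and a PD library held 16308476 to 18071632. The 10 genes had between 478 and 5568 fragments each in a library. Of 16 markers of hepatocytes and HepG2, 8 were in the table. CPS1, a urea cycle enzyme, had 106 to 228 FPKM, RBP4 reached 1.73 FPKM, and the other 6 stayed under 1 FPKM in every library, including HNF4A, SERPINA1 and TF, so most hepatocyte markers that could be checked were near 0 in cells labelled HepG2. The markers not found in the table by symbol were ALB, AFP, APOA2, APOB, APOH, TTR, FGB and AHSG. Every gene of the table was above 0 in at least 1 library, and why these markers are absent was not tested. The summed FPKM of the hepatocyte list was 222 to 229 in DMSO and 107 to 113 in PD, nearly all of it CPS1. Of 4 epithelial markers in the table, 3 reached 1 FPKM. The 4 summed to 95.4 to 101 FPKM in DMSO and 114 to 120 FPKM in PD, nearly all of it the keratins KRT8 and KRT18. EPCAM had 0.882 to 1.54 FPKM, and KRT19 was not found in the table. CDH1, here the cadherin gene and not FZR1, stayed at or under 0.145 FPKM in every library. The 5 fibroblast markers summed to 4.52 to 5.40 FPKM in DMSO and 4.82 to 5.09 FPKM in PD. The 2 blood and 3 endothelial markers in the table stayed under 1 FPKM. The part of cell identity in the results below was not tested.

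PD-treated cells had less RNA of 9 of the 10 genes. CCNB1, CDC20 and UBE2C fell to 48.2%, 51.3% and 52.6% of the DMSO level, CCNB2, FBXO5, PTTG1, FZR1, UBE2S and CCNA2 fell by smaller amounts, and CCNF did not pass the test. All 10 genes were tested among the 14400 genes that averaged 0.5 FPKM or more, by limma on log2(FPKM + 1), and a gene was called at an adjusted p of at most 0.05. Against the 9 lower and 0 higher calls in the set, 26.2% of all tested genes were lower and 31.9% were higher in PD, 58.1% in either direction. The median log2 fold change of the set was -0.43, and that of all tested genes was 0.01. With a threshold of 2-fold added, CCNB1 alone was called, where 1.57% of all tested genes were lower by this rule, 2.04% were higher and 3.61% were called in all. CDC20 and UBE2C lay just short of it, and upper quartile scaling called 2 members at 2-fold. That scaling also moved the split of all calls, from 54.8% higher and 45.2% lower to 44.8% higher and 55.2% lower, while the 9 genes stayed lower.

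**Figure D1:**
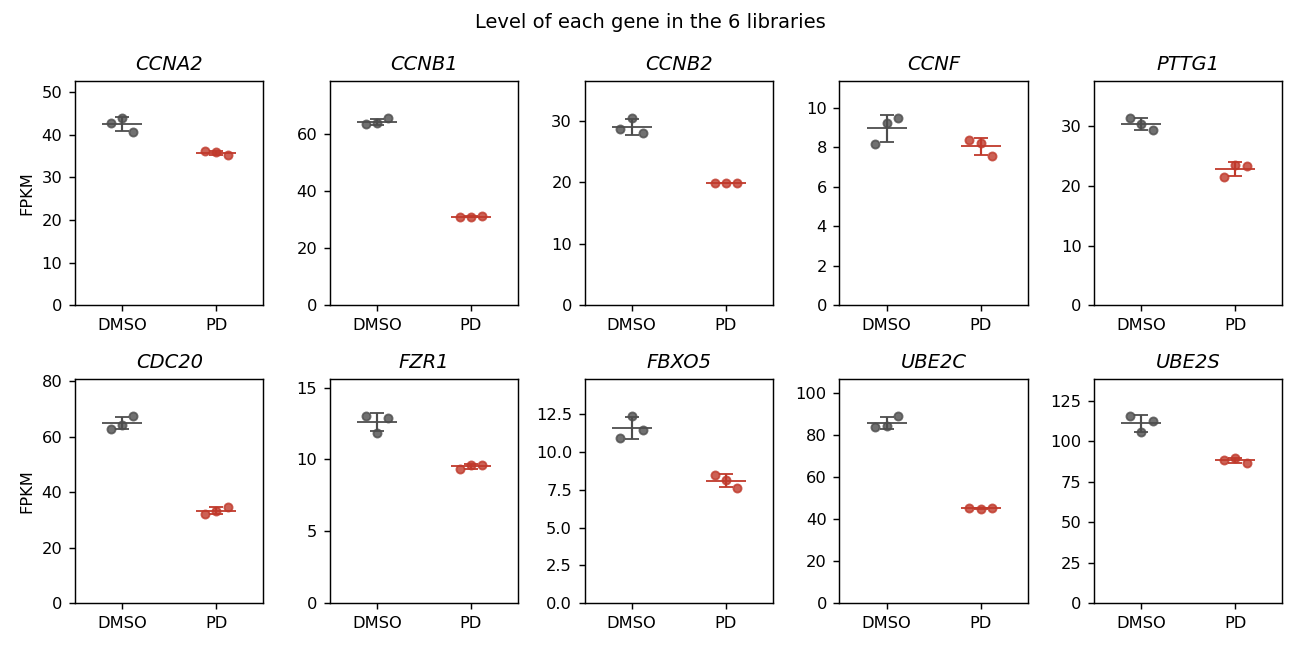
FPKM of each of the 10 genes (y axis, from 0) in the 3 DMSO and the 3 PD libraries (x axis), with points for single libraries and bars for the mean and SD. In 9 panels the PD points lie below all DMSO points, and in the CCNF panel they overlap.

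Among the cyclins, the B types fell most. Gene positions here and below are those of GENCODE release 44 on GRCh38. CCNB1 (ENSG00000134057, chr5:69167135-69178245, plus strand), the main mitotic partner of CDK1, had 63.6, 63.7 and 65.5 FPKM in DMSO replicates 1, 2 and 3 and 31.0, 30.8 and 31.1 FPKM in PD replicates 1, 2 and 3. The groups lay far apart, and the SD of the PD libraries was 0.174 FPKM (n = 3). The mean in PD was 48.2% of that in DMSO, and its log2 fold change was -1.03 (standard error 0.03, limma adjusted p 1.6e-06).

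CCNB2 (ENSG00000157456, chr15:59105126-59125045, plus strand), a B-type cyclin that is found largely at the Golgi, had 28.7, 30.4 and 27.9 FPKM in DMSO and 19.8 FPKM in each PD library, 68.3% of the DMSO mean. Its log2 fold change of -0.53 had a 95% interval from -0.62 to -0.43 (limma), which does not reach the interval of CCNB1, from -1.10 to -0.96. CCNA2 (ENSG00000145386, chr4:121816444-121823883, minus strand), the cyclin of S phase and early mitosis, changed less. It had 42.8, 43.8 and 40.7 FPKM in DMSO and 36.2, 35.9 and 35.3 FPKM in PD, with the PD libraries all below the DMSO libraries. Its log2 fold change was -0.24 with an adjusted p of 0.0011 (limma), and its 95% interval was from -0.32 to -0.15.

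CCNF (ENSG00000162063, chr16:2429394-2458854, plus strand) had the lowest level of the set in DMSO, with 8.17, 9.24 and 9.46 FPKM, and 8.38, 8.19 and 7.54 FPKM in PD. The groups overlapped, because DMSO replicate 1 was below 2 of the PD libraries. The log2 fold change was -0.14 with a 95% interval from -0.29 to 0.02 and an adjusted p of 0.11 (limma), so a fall as large as that of CCNB2 lies outside the interval, while a small one does not. The call depended on DMSO replicate 1, without which the log2 fold change was -0.20 and the adjusted p 0.030 (limma). It also depended on scaling, since upper quartile scaling gave -0.21 and 0.029, and the adjusted p ranged from 0.029 to 0.29 over the 12 alternatives.

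The coactivators of the APC/C fell by unequal amounts. CDC20 (ENSG00000117399, chr1:43358981-43363203, plus strand), which activates the complex at anaphase and is the target of the spindle checkpoint, had 62.9, 64.3 and 67.4 FPKM in DMSO and 32.0, 33.3 and 34.5 FPKM in PD. This is 51.3% of the DMSO mean, with a log2 fold change of -0.94 (standard error 0.04, limma adjusted p 4.7e-06) and a 95% interval from -1.04 to -0.85. FZR1 (ENSG00000105325, chr19:3506311-3538334, plus strand), which takes over at mitotic exit and keeps the complex active in G1, had 13.0, 11.9 and 12.9 FPKM in DMSO and 9.31, 9.60 and 9.64 FPKM in PD. FZR1 fell as well, to 75.6% of the DMSO mean, by a log2 fold change of -0.37 with an adjusted p of 0.00045 (limma) and a 95% interval from -0.48 to -0.26, which does not reach that of CDC20. FBXO5 (ENSG00000112029, chr6:152970519-152983579, minus strand), the inhibitor of the complex, had 10.9, 12.4 and 11.5 FPKM in DMSO and 8.49, 8.16 and 7.65 FPKM in PD, a log2 fold change of -0.47 with an adjusted p of 0.00040 (limma). RNA of both activators and of the inhibitor was lower in PD, and in each of these 3 genes the groups did not overlap.

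Both ubiquitin-conjugating enzymes were among the more abundant RNAs of the set. UBE2C (ENSG00000175063, chr20:45812576-45816957, plus strand), which places the first ubiquitins, had 84.0, 84.1 and 89.1 FPKM in DMSO and 45.4, 44.9 and 45.1 FPKM in PD, with a log2 fold change of -0.91 (standard error 0.03, limma adjusted p 3.1e-06). UBE2S (ENSG00000108106, chr19:55399745-55407788, minus strand), which lengthens the chains, had the highest level of the set in both groups, 116, 105 and 113 FPKM in DMSO and 88.5, 89.8 and 86.3 FPKM in PD. It fell to 79.3% of the DMSO mean and UBE2C to 52.6%, and the log2 fold change of UBE2S was -0.33 with an adjusted p of 0.00032 (limma). PTTG1 (ENSG00000164611, chr5:160421855-160428739, plus strand), the securin gene, had 31.3, 30.4 and 29.3 FPKM in DMSO and 21.4, 23.6 and 23.3 FPKM in PD. The PD libraries of PTTG1 all lay below the DMSO libraries, and its log2 fold change was -0.40 with an adjusted p of 0.00030 (limma). For the 9 genes called, the PD libraries lay entirely below the DMSO libraries, which held for 29.9% of all tested genes, while in 35.6% they lay entirely above.

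The order of the levels was largely kept. In DMSO, UBE2S came first, followed by UBE2C, CDC20, CCNB1, CCNA2, PTTG1, CCNB2, FZR1, FBXO5 and CCNF. CDC20 and CCNB1, PTTG1 and CCNB2, and FZR1 and FBXO5 were neighbours whose DMSO libraries overlapped, so their order was within the spread. In PD, CCNA2 came next after UBE2S and UBE2C, above CDC20 and CCNB1, and only the libraries of FBXO5 and CCNF overlapped. CCNB1 had more FPKM than 95.7% of tested genes in DMSO and than 89.0% in PD, and CDC20 went from 95.8% to 89.9%. In the summed FPKM of the 10 genes, the DMSO libraries held 456 to 466 and the PD libraries 300.2 to 304.

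Ratios between genes within a library do not depend on how the library was scaled, apart from the pseudocount, and 8 pairs were compared by an exact permutation test (two-sided), for which 0.10 is the smallest p with 3 against 3 libraries. The ratio of CDC20 to FZR1 was 4.84, 5.43 and 5.22 in DMSO and 3.44, 3.47 and 3.58 in PD. On the log2(FPKM + 1) scale the difference, PD minus DMSO, was -0.57 (exact permutation p = 0.10, adjusted over the 8 pairs 0.16). The ratio of UBE2S to UBE2C was 1.38, 1.25 and 1.26 in DMSO and 1.95, 2.00 and 1.91 in PD, a difference of 0.58 on that scale. The ratio of CCNB2 to CCNB1 had a mean of 0.451 ± 0.0250 in DMSO and 0.640 ± 0.00327 in PD (SD, n = 3 each), and that of CCNA2 to CCNB1 had 0.661 ± 0.0344 and 1.16 ± 0.0194, so that CCNB1 was above CCNA2 in each DMSO library and below it in each PD library. CDC20 to MAD2L1, the checkpoint protein that binds it, had 6.01 ± 0.305 and 3.44 ± 0.339. In these 5 pairs the groups did not overlap, and each had the smallest p that the test can give, so none could pass 0.05.

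In the other 3 pairs the groups overlapped. FBXO5 to FZR1 had a mean ratio of 0.925 ± 0.107 in DMSO and 0.852 ± 0.0593 in PD (SD, n = 3 each, exact permutation p = 0.50), CCNF to CCNA2 had 0.211 ± 0.0208 and 0.224 ± 0.00931 (exact permutation p = 0.30), and PTTG1 to ESPL1, the gene of separase, had 1.59 ± 0.120 and 1.51 ± 0.00161 (exact permutation p = 0.40). For these pairs a difference was not detectable with 3 libraries per group, which does not show that the members of a pair moved alike.

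**Figure D2:**
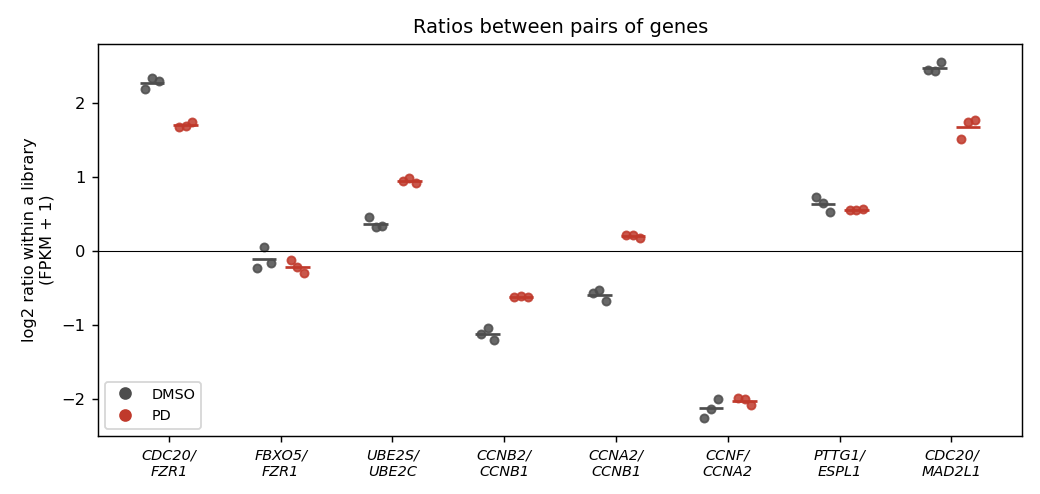
Log2 ratio of FPKM + 1 within a library (y axis) for 8 pairs of genes (x axis), with a point per library and a line at the mean of the 3 DMSO or 3 PD libraries. CDC20/FZR1, UBE2S/UBE2C, CCNB2/CCNB1, CCNA2/CCNB1 and CDC20/MAD2L1 separate the groups, and the other 3 pairs overlap.

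The upstream sequences are shown because genes of this kind are known for shared promoter elements, the CCAAT box that the factor NF-Y binds and the cell cycle genes homology region (CHR) that the DREAM and MuvB complexes bind. RefSeq promoter windows (GRCh38.p14) were found for 9 of the 10 genes, 12 windows in all, with UBE2C unmatched. The letters CCAAT or ATTGG were searched for the first element and TTTGAA or TTCAAA or TTCGAA for the second, that is both strands, in the 250 bases before the start site. CCAAT and ATTGG share letters in CCAATTGG, which counts as a match of each. The windows of CCNB1 and CDC20, the largest falls with a window, of CCNB2, the related cyclin that fell less, and of FZR1, the coactivator that fell less than CDC20, are printed 5′ to 3′ without the 20 bases nearest the start site, with matches in capitals. All 4 are on the plus strand and each has 230 bases.
CCNB1, chr5:69166900-69167129: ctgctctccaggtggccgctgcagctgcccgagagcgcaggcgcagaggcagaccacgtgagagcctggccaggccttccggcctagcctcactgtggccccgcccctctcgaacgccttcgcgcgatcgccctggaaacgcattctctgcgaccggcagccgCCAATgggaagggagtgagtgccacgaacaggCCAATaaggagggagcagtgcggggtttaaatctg
CCNB2, chr15:59104896-59105125: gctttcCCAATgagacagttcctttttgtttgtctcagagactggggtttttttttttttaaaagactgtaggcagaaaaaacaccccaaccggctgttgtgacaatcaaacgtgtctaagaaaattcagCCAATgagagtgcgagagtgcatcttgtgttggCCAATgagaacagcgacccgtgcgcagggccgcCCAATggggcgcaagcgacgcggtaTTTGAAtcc
CDC20, chr1:43358731-43358960: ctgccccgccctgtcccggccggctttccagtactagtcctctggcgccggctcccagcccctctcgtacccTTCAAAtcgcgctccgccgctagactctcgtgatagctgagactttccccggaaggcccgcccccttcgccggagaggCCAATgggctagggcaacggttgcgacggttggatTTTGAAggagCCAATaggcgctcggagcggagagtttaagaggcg
FZR1, chr19:3506061-3506290: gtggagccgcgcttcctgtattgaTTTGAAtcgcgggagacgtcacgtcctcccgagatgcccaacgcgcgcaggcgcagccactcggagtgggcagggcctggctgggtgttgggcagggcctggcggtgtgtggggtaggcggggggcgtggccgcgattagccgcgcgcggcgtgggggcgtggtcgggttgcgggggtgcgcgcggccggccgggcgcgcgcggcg

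The CCNB1 window held 2 CCAAT boxes, starting 87 and 55 bases before the start site and so 32 bases apart, and no match to the CHR letters. The CCNB2 window held 4 CCAAT boxes, of which those at 120, 87 and 54 bases before the start site were 33 bases apart, and a CHR match at 29 bases. In CDC20 there were CCAAT boxes at 100 and 55 bases and CHR matches at 178 and 65 bases. The FZR1 window shown had a single CHR match, at 226 bases, and a second FZR1 window had no match. CCAAT boxes were in 9 of the 12 windows, and in 32.0% of all 35116 windows of this length. The windows of PTTG1 overlap, and the same CCAAT matches are counted in each. By gene, CCAAT boxes were in at least 1 window of 8 of the 9 matched genes, all but FZR1. A share by gene over all windows was not computed. CHR letters were in 5 of the 12 windows, from 5 of the 9 genes, and in 14.3% of all windows. Both were in 4 of the 12 windows, those of CDC20, CCNB2, CCNF and FBXO5, and in 5.05% of all windows. CCNF, which was not called, had 4 CCAAT and 2 CHR matches, and CCNB1, which fell most, had 2 CCAAT and no CHR match. Only the exact letters given above were searched, so an element spelled otherwise is not counted. Whether matches go with the change of a gene was not tested. These are matches of letters, and binding was not measured here.

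**Figure D3:**
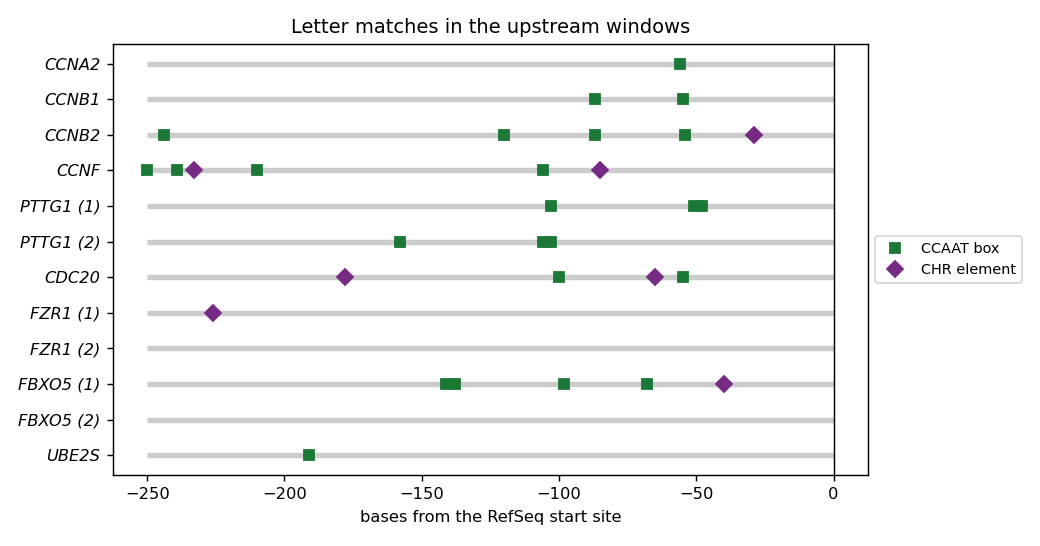
Positions of CCAAT box (squares) and CHR (diamonds) letter matches in the 12 upstream windows of 9 genes, drawn to scale as bases from the RefSeq start site (x axis), with windows of the same gene numbered in order of genome position. All CCAAT matches lie within 120 bases of the start site in CCNB1, CDC20, PTTG1 (1) and CCNA2, which has a single match. None is drawn for FZR1.

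Copies and relatives of the 10 genes had low values. CDC20P1, a processed copy of CDC20, had 1.09 ± 0.155 FPKM in DMSO and 0.576 ± 0.0790 FPKM in PD (SD, n = 3 each), and UBE2SP2 had 0.785 ± 0.172 and 0.348 ± 0.110 FPKM. UBE2SP1 had 1.05 ± 0.532 and 0.610 ± 0.172 FPKM, and its groups overlapped. These values rest on few fragments per library, 12 to 31 for CDC20P1, 2 to 8 for UBE2SP2 and 5 to 19 for UBE2SP1. Reads that match a parent and its copy alike could have been split or dropped in the counting, so the FPKM of CDC20 and UBE2S are uncertain by an amount that was not measured. FBXO43 (EMI2), the relative of FBXO5 known from egg cells, had 5.95 to 6.05 FPKM in DMSO and 4.97 to 5.01 FPKM in PD, with a log2 fold change of -0.22 and an adjusted p of 0.0031 (limma). CCNB3, a cyclin of meiosis, and CDC20B were at or under 0.11 FPKM in every library. The relatives and copies CCNA1, PTTG2, CCNB1P1, CCNB2P1 and UBE2CP3 were looked up and not found in the table by symbol.

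CCNA2, FZR1, CCNF and FBXO5 share exon bases with a gene on the opposite strand, and since the strand setting of the counting is not stated, reads of both could be mixed there. CCNA2 shares 254 bases, 9.24% of its exons in GENCODE release 44, with EXOSC9, which went from 7.78 ± 0.231 to 5.44 ± 0.181 FPKM (SD, n = 3 each). FZR1 shares 74 bases, 1.14% of its exons, with MFSD12, which was far more abundant at 170 ± 7.50 FPKM in DMSO and 149 ± 3.01 FPKM in PD. CCNF and FBXO5 share exon bases with genes known by Ensembl identifiers only, which stayed at or below 1.02 FPKM where they were in the table. The part of these genes in the values of CCNA2, FZR1, CCNF and FBXO5 was not tested, and CCNB1, CCNB2, CDC20, UBE2C, UBE2S and PTTG1 have no such overlap.

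The core subunits of the APC/C itself had no shared direction. Of 14 subunits, all tested, 4 were lower, 4 were higher and 6 were not called, and none reached 2-fold. With 8 of 14 called, their share was near the 58.1% of all tested genes. Their median log2 fold change was -0.03. CDC27, a scaffold subunit that coactivators dock on, changed most, with 22.1, 22.8 and 19.8 FPKM in DMSO and 13.5, 11.2 and 11.4 FPKM in PD (log2 fold change -0.79, limma adjusted p 0.00015). ANAPC5 rose by 0.36 and ANAPC1, the largest subunit, fell by 0.35 on the log2 scale. CDC27 and ANAPC1 have near-identical copies elsewhere in the genome, so their values are less certain.

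The spindle checkpoint acts on CDC20, and securin holds separase in check. Among 11 genes of the checkpoint and separase, 6 were lower, 3 were higher and 2 were not called. Of all tested genes, 26.2% were lower and 31.9% higher. The median log2 fold change of the 11 genes was -0.18. The largest changes were the falls of the checkpoint kinase BUB1, from 23.5 ± 0.356 to 12.8 ± 0.705 FPKM (SD, n = 3 each, log2 fold change -0.82), of BUB1B (-0.72), which binds CDC20 in the checkpoint complex, and of the kinase TTK (-0.63), with adjusted p of 1.1e-05, 0.00016 and 8.1e-05 (limma). Exons of BUB1B overlap a readthrough gene on the same strand. MAD2L1, with 10.8 ± 0.238 FPKM in DMSO and 9.73 ± 0.677 FPKM in PD, had an adjusted p of 0.060 (limma), which ranged from 0.0078 to 0.18 over the 12 alternatives and was 0.014 without PD replicate 1, while ESPL1 fell by 0.32 on the log2 scale.

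The 21 other genes whose proteins the APC/C is known to mark moved in both directions. There were 11 lower, 7 higher and 3 not called, and their median log2 fold change was -0.32. Of all tested genes, 58.1% were called, 26.2% as lower and 31.9% as higher. Among the 21 genes, 3 fell and 1 rose by at least 2-fold, where 1.57% of all tested genes were lower and 2.04% higher by this rule. PLK1, a kinase of mitotic entry, fell most, with 26.9 to 27.6 FPKM in DMSO and 8.64 to 9.29 FPKM in PD. Its log2 fold change was -1.50 (limma adjusted p 1.4e-06), and AURKA, a spindle pole kinase, fell by 1.35 on this scale (limma adjusted p 3.2e-06). ANLN, which encodes the cytokinesis protein anillin, fell by 1.08. These values lie beyond those of all 10 genes of the set, and exons of PLK1 and ANLN overlap genes on the opposite strand. The largest rise was that of CDC6, a factor that licenses replication origins, from 17.3 ± 0.532 to 39.6 ± 0.841 FPKM (SD, n = 3 each), with an adjusted p of 2.4e-06 (limma). Higher as well were TK1 (0.82), a thymidine kinase, GMNN (0.58), which encodes geminin, RRM2 (0.55), a subunit of ribonucleotide reductase, and AURKB (0.32), the kinase of the chromosomal passenger complex, with 30.9 to 33.5 FPKM in DMSO and 39.6 to 42.6 FPKM in PD.

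**Figure D4:**
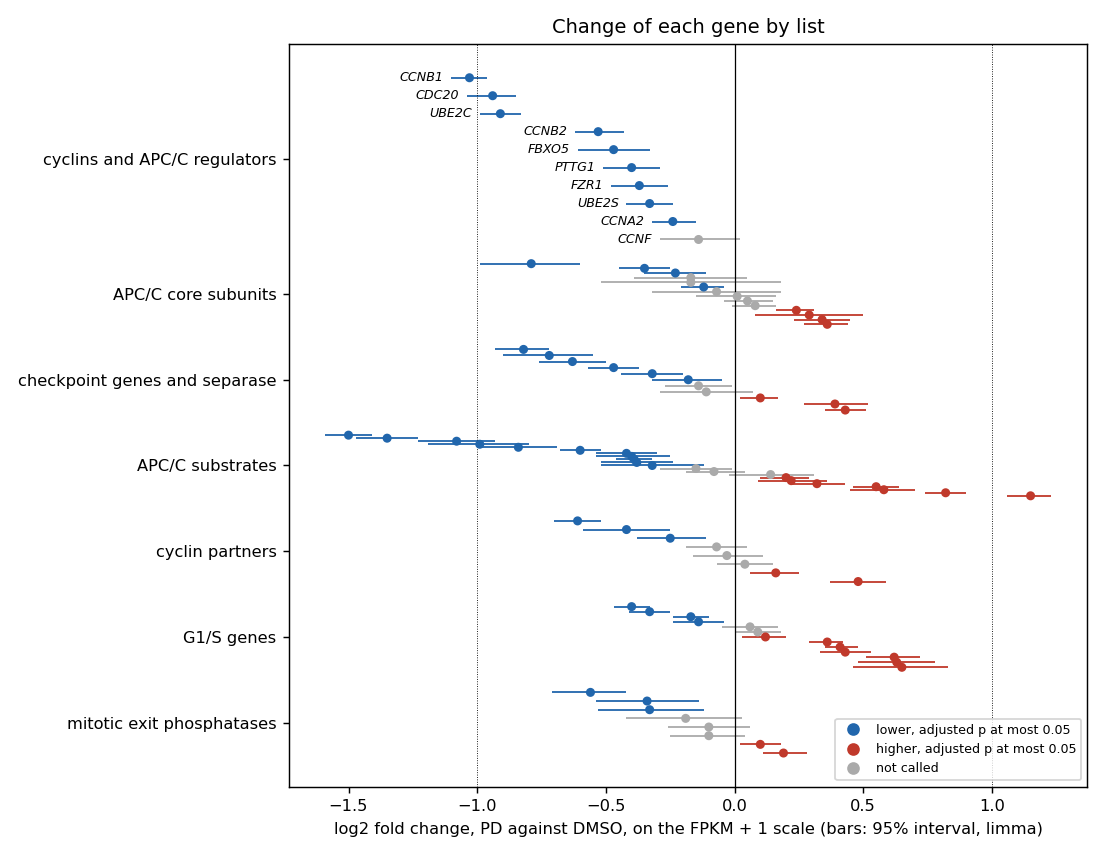
Log2 fold change of PD against DMSO on the FPKM + 1 scale (x axis) for every tested gene of 7 lists (y axis), with 95% intervals from limma and color by call. The 10 cyclins and APC/C regulators, named in the top row, all have points left of 0, with only the CCNF interval crossing it, while each of the other lists has calls on both sides.

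Of 8 genes for the kinases that the cyclins bind and the enzymes that act on them, 3 were lower, 2 were higher and 3 were not called, and the median log2 fold change was -0.05. With 5 of 8 called, their share was near the 58.1% of all tested genes, and with upper quartile scaling 4 were lower and 1 was higher. CKS2, a small subunit of the cyclin-bound kinase, fell from 250 ± 9.51 to 163 ± 4.46 FPKM (SD, n = 3 each), and its log2 fold change was -0.61 (limma adjusted p 1.4e-05). The inhibitory kinases of CDK1 went opposite ways, with a log2 fold change of 0.48 for PKMYT1, whose exons overlap genes on the opposite strand, and of -0.42 for WEE1. CDK1 itself had 66.8, 68.5 and 61.4 FPKM in DMSO and 58.9, 54.2 and 52.1 FPKM in PD, a log2 fold change of -0.25 with an adjusted p of 0.0081 (limma), close in size to that of CCNA2.

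For contrast, 13 genes of the preceding wave, transcribed around the start of S phase, included 7 that were higher, 4 that were lower and 2 that were not called, and their median log2 fold change was 0.12. Among all tested genes, 31.9% were higher and 26.2% lower. The largest changes were rises of CCNE2 (0.65), CCNE1 (0.63), the cyclins of S phase entry, and CDT1 (0.62), a licensing factor that geminin, the product of GMNN, inhibits. The 4 lower genes were MCM2 (-0.40), MCM5 (-0.33), MCM6 (-0.17) and MCM3 (-0.14), which encode subunits of the replicative helicase, while MCM4, another subunit, was higher (0.36) and MCM7 was not called. MCM3 had an adjusted p of 0.023 (limma), which was 0.052 to 0.065 without DMSO replicate 2 or any single PD replicate. CCNE1 had 8.81 ± 0.686 FPKM in DMSO and 14.2 ± 0.735 FPKM in PD (SD, n = 3 each). Exons of CCNE2 overlap genes on the opposite strand. Cyclins of the E type were higher in PD while those of the B type were lower, with no overlap of the groups in CCNE1, CCNE2, CCNB1 or CCNB2.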

How the data were processed

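The authors made poly(A) libraries (NEBNext Ultra), aligned 150 bp paired-end reads to hg38 with HISAT2 and counted them per gene with HTSeq (version 0.6.0, per the labels), and deposited FPKM, a single table with 3 libraries per group. Gene annotation and strand setting are not given in the sources used here. Tests were run on the deposited FPKM with limma 3.58.1 in R 4.3.3 (intensity trend, no covariate) on log2(FPKM + 1) for genes averaging 0.5 FPKM or more, with Benjamini-Hochberg adjustment over all of them; this scale understates the change of low genes. The authors used DESeq2. It was not run here, since the deposited values are FPKM, and fragments worked back from them were tested with voom. Ratios were tested in scipy 1.17.1.

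Whole fragments (tolerance 0.001) were worked back for all 28563 genes from FPKM, exon lengths in GENCODE release 44 or a step shared by the libraries. Counting error was at most 4.57% for any of the 10 genes in a library. Chi-square per gene was 2.30 to 3.78 between libraries of a group, so none were duplicates. Replicates were separate plates of 1 line, so p-values measure the spread between plates.

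The set and all lists were chosen with earlier results of these data known. Named are the 10 genes, the 3 largest called changes of each list, relatives in the table, both genes of each ratio, and the 3 nearest profiles of UBE2S and UBE2C; ANLN, TK1, GMNN, RRM2, AURKB, CDK1, the MCM genes and the marker genes were added with their values in view. The test was run on simulated data first. Alternatives were a pseudocount of 0.1, no filter, a replicate block, median-of-ratios and upper quartile scaling, voom on fragments (at least 10 in 3 libraries), and each library left out.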

Additional observations from a re-analysis of the deposited data

How the results depend on the processing

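The median log2 fold change of the 10 genes, -0.43 as reported, was -0.46 with a pseudocount of 0.1, with median-of-ratios scaling and with voom on fragments, and -0.51 with upper quartile scaling. It was -0.45 to -0.42 when a library was left out. At an adjusted p of at most 0.05, between 9 and 10 of the genes were called as lower in the 12 alternatives, and the tenth, CCNF, was called with upper quartile scaling and without DMSO replicate 1. At 2-fold, 2 genes were called with upper quartile scaling, where CDC20 reached a log2 fold change of -1.03, and 1 in each of the other alternatives. Of the other genes named for their change, MAD2L1 was called in 4 alternatives, with the lowest adjusted p (limma, 0.0078) under upper quartile scaling, and MCM3 lost its call in 5, with adjusted p up to 0.065 (limma). The calls of each other list, both directions summed, stayed within 1.5 times those reported. By direction, 2 lists moved further. Higher calls among the cyclin partners went from 2 to 1 with upper quartile scaling, and among the phosphatases from 2 to 1 with a replicate block, no filter, either rescaling, or without DMSO replicate 1 or 2 or any PD replicate, while upper quartile scaling gave 5 lower phosphatase calls in place of 3. MCM7, which was not called, went from 0.06 to -0.02 with upper quartile scaling. No other gene followed over the alternatives changed direction, and no ratio did. The processed copies, the marker genes, the genes that share exons and the nearest profiles were not followed in this way. In the leave-one-out fits the difference in the log2 ratio of FBXO5 to FZR1 ranged from -0.16 to -0.02. No pairing of plates by replicate number was seen. Deviations of same-numbered libraries had correlations of -0.027, -0.00462 and 0.0898, and those of differently numbered libraries -0.0835 to 0.0847. A weak pairing could be missed with 3 libraries per group. The fit with a replicate block called 9 of the 10 genes, with 1 at 2-fold. Depth limits FBXO5 and PTTG1 most, and 3 plates per group limit every ratio test.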

Other observations

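Of 8 phosphatase genes and regulators of mitotic exit, 3 were lower, 2 were higher and 3 were not called (limma), where 26.2% of all tested genes were lower and 31.9% higher. There was 1 higher call without DMSO replicate 1, without DMSO replicate 2 or without any single PD replicate. The median log2 fold change was -0.15. PPP2R2A, a regulatory subunit of the phosphatase PP2A, changed most, from 20.5 ± 0.924 FPKM in DMSO to 13.6 ± 1.06 FPKM in PD (SD, n = 3 each). PPP2R2B (-0.34) and CDC14A (-0.33) were lower as well, both at 3.22 FPKM or less in every library.

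Over the 6 libraries, the genes of at least 5 FPKM whose centred log2 profile lay nearest to that of UBE2S, among 7574 others, were HMG20B, GOLGA8B and RANBP1, with root mean square distances of 0.0171, 0.0198 and 0.0220. For UBE2C they were STAT5A, OSBPL10 and BASP1, with distances of 0.0203, 0.0245 and 0.0316. These distances describe 6 libraries in 2 groups.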
